A study of Mus musculus with 15 samples.

Results

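Vegfa and 9 further target genes of the hypoxia-inducible factors (HIFs) were followed in bone marrow-derived macrophages (BMDMs). The members were Vegfa, Adm, Egln3, Bnip3, Ndrg1, Slc2a1, Ankrd37, P4ha1, Pdk1 and Egln1. They were taken by symbol from the deposited count table, and all 10 were found among its 55385 genes. BMDMs were grown from STAT5 fl/fl mice, in which the Stat5 alleles are flanked by loxP sites, and from STAT5 cKO mice, which carry the same alleles and Csf1r-iCre. All mice were on the BALB/c background and were labelled as 6 weeks old. The cells spent 2 h in serum-free DMEM, in 20 ng/mL recombinant mouse GM-CSF (rmGM-CSF) or in medium conditioned by 4T1 mouse mammary tumor cells (4T1 CM). By their titles the 15 libraries came from 5 numbered replicates, 2 of them fl/fl and 3 cKO, each with a library in each of the 3 media. These replicates are read here as mice, which the labels do not state. The Csf1r promoter is active in myeloid cells in general, so the deletion is not limited to macrophages. 1 fl/fl replicate was removed by the study's quality control and is not analysed here.

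HIFs are dimers of an oxygen-regulated alpha subunit and a stable partner, ARNT. In the presence of oxygen, prolyl hydroxylases mark the alpha subunit for degradation through the VHL ubiquitin ligase, and at low oxygen the dimer binds hypoxia response elements and raises genes for glucose uptake, glycolysis, vessel growth and mitochondrial turnover. In macrophages the alpha subunit is also induced by inflammatory signals at normal oxygen, and HIF target genes such as Vegfa are a known part of the program of tumor-associated macrophages. No oxygen level is given in the labels.

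The libraries held between 16016736 and 22883108 counts in genes, so that 1 CPM (counts scaled to equal library totals) stood for 16.0 to 22.9 reads. Stat5a had 637 to 918 counts in the fl/fl libraries and 0 to 3 in the cKO libraries, and Stat5b had 977 to 1654 and 0 to 4. All 8 macrophage markers were above 1 CPM in all groups. Of 7 lymphoid markers, 5 were at 3 counts or fewer in every library, and Cd79a and Jchain reached 4 and 5 counts. Of 9 neutrophil markers, 6 were at 3 counts or fewer, Ly6g and S100a9 among them, Camp and Ltf reached 4 and 5 counts, and S100a8 had 3 to 50 counts, with means of 0.435 CPM in fl/fl and 0.410 CPM in cKO in DMEM and of 1.19 and 1.64 CPM with 4T1 CM. The summed level of 7 stromal markers was low but higher in every cKO library than in every fl/fl library of the same medium, with 1.17 to 2.53 CPM in fl/fl and 3.02 to 9.14 CPM in cKO. Col1a1 and Col1a2 made up most of it, with means with 4T1 CM of 0.381 and 1.04 CPM in fl/fl and 1.71 and 3.26 CPM in cKO. With 4T1 CM Col1a1 had only 4 to 11 counts in fl/fl and 9 to 74 in cKO, and the genotypes overlapped. They did not overlap for Col1a2, with 12 to 29 and 39 to 96 counts, or for Col1a1 in DMEM and with rmGM-CSF. Col3a1, Dcn, Pdgfra and Cxcl12 averaged at most 0.418 CPM in any group, and Lum was at 3 counts or fewer. By qRT-PCR the paper reports Col1a1 as upregulated in STAT5 cKO macrophages. The summed level of 5 mast cell and basophil markers was lower in every cKO library of a medium (6.29 to 23.5 CPM in fl/fl, 1.18 to 7.48 CPM in cKO), with 4 of the 5, Cpa3, Mcpt8, Ms4a2 and Prss34, at 3 counts or fewer. The sum of 6 epithelial markers was 0 to 0.136 CPM in DMEM and 1.23 to 4.33 CPM with 4T1 CM. With rmGM-CSF it was 1.18 to 1.43 CPM in fl/fl and 0 to 0.0490 CPM in cKO. Cdh1 alone carried these rises, with 0 to 1 counts in DMEM and 63 to 84 in fl/fl and 24 to 47 in cKO with 4T1 CM. Under rmGM-CSF, Cdh1 had 21 counts in each fl/fl library and 0 to 1 in cKO. Krt8, Krt18, Krt14, Cldn3 and Epcam were at 4 counts or fewer in every library. The macrophage marker sum was also higher in cKO, at 31111 to 46593 CPM against 24626 to 29832 CPM. Lyz2 made up most of this sum, with means in DMEM of 17044 CPM in fl/fl and 26309 CPM in cKO. Adgre1, Mertk and Cd14 were also higher in cKO in DMEM by group mean, whereas Csf1r, Cd68, Itgam and Fcgr1 were lower. The mitochondrial share of counts was 1.78 to 2.27% in fl/fl and 1.48 to 1.99% in cKO. The part of these differences in the comparisons given here was not tested. In bulk RNA, a lower share of cells that express a gene and less of its RNA per cell cannot be told apart.

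The core of a hypoxia response element is ACGTG or GCGTG. RefSeq gives 11 windows of 250 bases before a transcription start for 9 of the members, and none was found for Ndrg1. On either strand, 9 of the 11 windows held a core, against 38.6% of the 32841 windows of all genes. ACGTG alone was in 7 of the 11 and in 16.6% of all windows, and GCGTG was in 8 of the 11 and in 28.2%. A CACGTG run is counted on both strands. A STAT site of the form TTCNNNGAA was in 0 of the 11 windows and in 7.02% of all. The cores contain CpG and follow base composition, and the windows of members had 38.4 to 86.0% G and C. A match describes letters in a window and not a bound site. The 4 windows below belong to the 2 members with the largest rises, Vegfa and Slc2a1, and to 2 that fell, Bnip3 and Ankrd37. They are shown 5′ to 3′ on the strand of the gene with the cores on either strand in capitals, from GRCm38.p6. The Slc2a1 run ends at position -5 before the start, after 246 bases, because no more than 30 exon bases are shown.
Vegfa, chr17:46032378-46032627, minus strand: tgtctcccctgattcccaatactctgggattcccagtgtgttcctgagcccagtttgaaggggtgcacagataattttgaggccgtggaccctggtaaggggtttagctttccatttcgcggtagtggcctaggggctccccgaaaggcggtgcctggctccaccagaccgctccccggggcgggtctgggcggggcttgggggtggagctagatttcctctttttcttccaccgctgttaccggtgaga
Slc2a1, chr4:119108495-119108740, plus strand: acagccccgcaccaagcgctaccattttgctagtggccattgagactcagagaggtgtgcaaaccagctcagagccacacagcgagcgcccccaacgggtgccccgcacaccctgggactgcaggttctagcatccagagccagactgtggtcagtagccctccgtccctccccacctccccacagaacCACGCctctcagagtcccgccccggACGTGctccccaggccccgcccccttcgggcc
Bnip3, chr7:138909507-138909756, minus strand: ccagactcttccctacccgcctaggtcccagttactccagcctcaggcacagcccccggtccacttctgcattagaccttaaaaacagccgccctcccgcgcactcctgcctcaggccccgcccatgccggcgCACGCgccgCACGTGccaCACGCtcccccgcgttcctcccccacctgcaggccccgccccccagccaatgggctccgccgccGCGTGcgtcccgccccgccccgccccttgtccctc
Ankrd37, chr8:45999851-46000100, minus strand: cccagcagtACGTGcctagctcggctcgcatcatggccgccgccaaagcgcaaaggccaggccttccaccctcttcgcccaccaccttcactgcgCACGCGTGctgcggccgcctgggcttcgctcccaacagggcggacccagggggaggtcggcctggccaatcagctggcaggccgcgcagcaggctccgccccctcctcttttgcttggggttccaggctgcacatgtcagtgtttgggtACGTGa
The Vegfa window held 0 cores, and sequence outside the windows was not searched. The window of a second annotated Vegfa start further inside the gene held 2, and 218 of its 250 bases lie in a Vegfa exon. The second Pdk1 window held 0 cores and lies wholly in a Pdk1 exon. These second windows are among the 11 counted above. Bnip3 had 5 cores, Ankrd37 had 4 and Slc2a1 had 2. Among the members not shown, P4ha1 had 3, Egln1 and Adm had 2 each, and Egln3 and the first Pdk1 window had 1 each. A relation between the cores in these windows and the responses was not tested. In the GENCODE annotation, 30 bases of the Slc2a1 run and 13 of the Bnip3 run lie in an exon of the gene, and the rest is upstream of the gene. The whole Ankrd37 window lies inside the annotated span of Ankrd37, with 17 bases in an exon, and also inside Lrp2bp, a gene on the opposite strand.

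To ask how strongly each gene was expressed before stimulation, levels were compared per kilobase of exon. In fl/fl cells in DMEM, Ndrg1 was highest at 33.6 CPM per kb, followed by P4ha1 at 16.8, Egln1 at 14.6, Slc2a1 at 9.78, Bnip3 at 6.65 and Vegfa at 5.62 CPM per kb. Pdk1, Ankrd37 and Egln3 were at 2.21, 1.33 and 0.740 CPM per kb. Adm was close to absent at 0.0271 CPM per kb. With 4T1 CM the order changed, and in cKO cells Vegfa and Slc2a1 led at 83.7 and 81.7 CPM per kb, ahead of Ndrg1 at 37.9 CPM per kb.

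**Figure D1:**
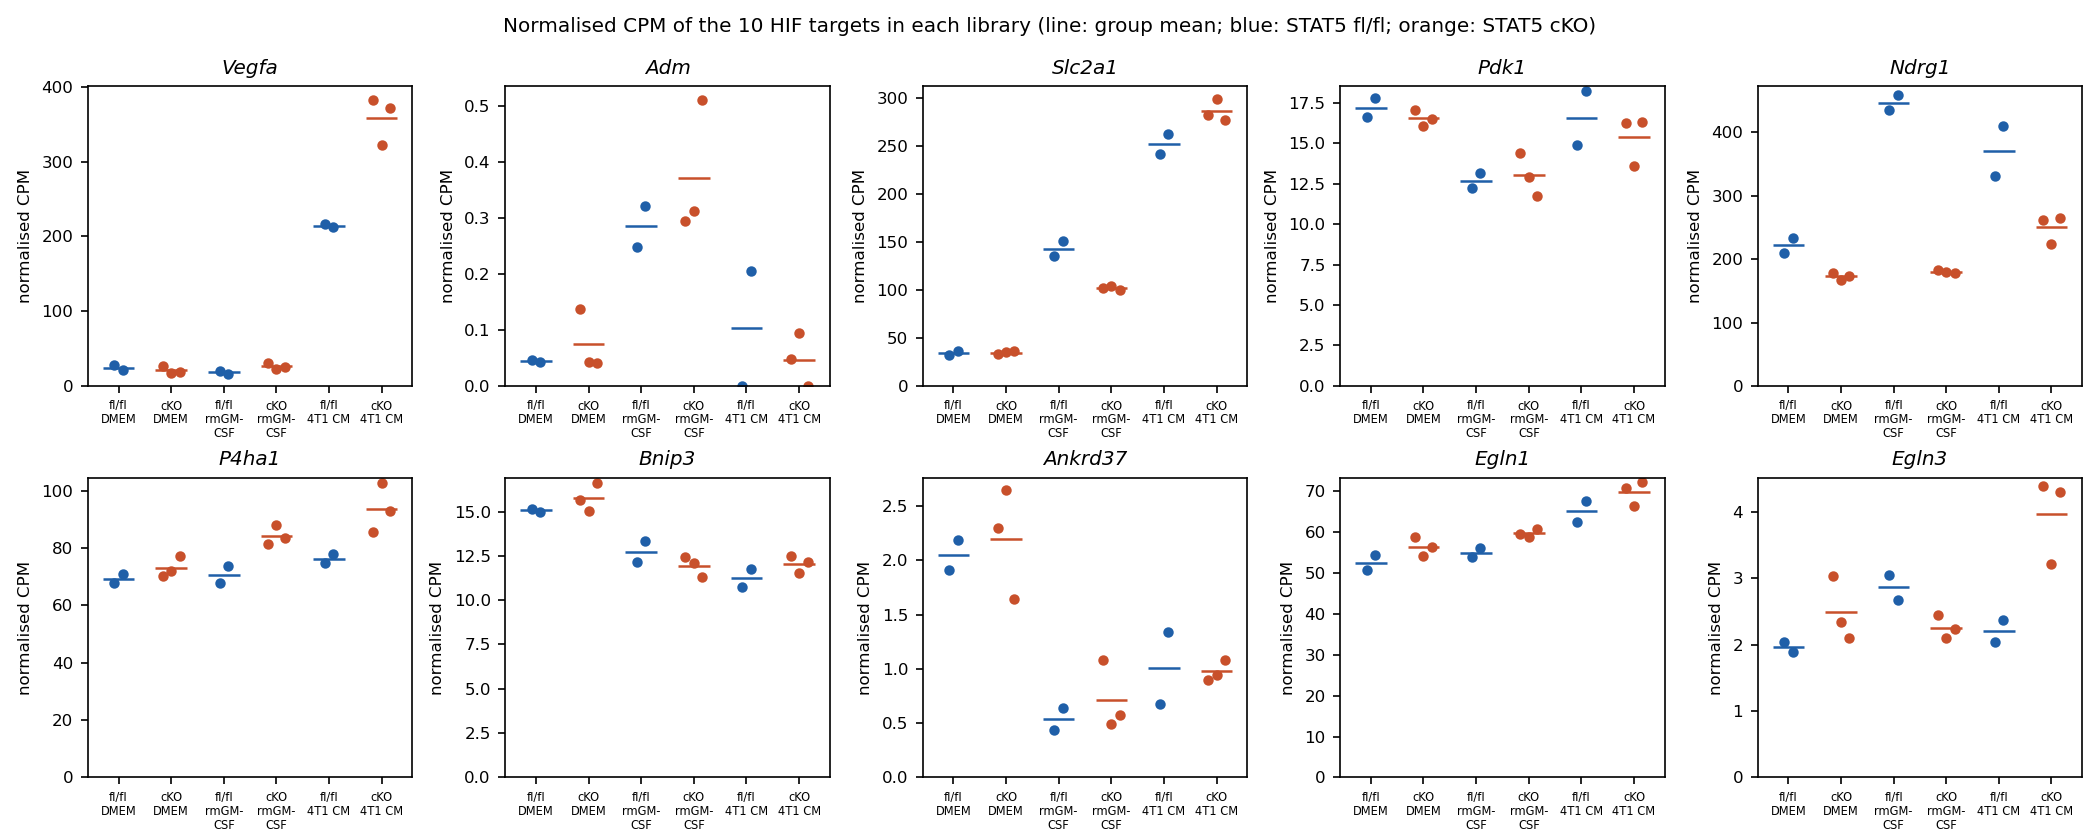
Normalised CPM (y axes, linear from 0) of the 10 members in each of the 15 libraries, by genotype and medium. Points are libraries and lines are group means. Vegfa stood at 16.3 to 30.3 CPM in all DMEM and rmGM-CSF libraries and at 212 to 383 CPM in all 4T1 CM libraries.

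Vegfa (ENSMUSG00000023951, chr17:46016993-46032369, minus strand) encodes the secreted growth factor that drives vessel growth. In DMEM it was at 27.3 and 20.9 CPM in the 2 fl/fl mice and at 26.2, 17.5 and 19.1 CPM in the 3 cKO mice. With rmGM-CSF it was at 20.0 and 16.3 CPM in fl/fl and at 30.3, 22.6 and 25.2 CPM in cKO. With 4T1 CM it reached 217 and 212 CPM in fl/fl and 383, 322 and 371 CPM in cKO. All 5 libraries of 4T1 CM were thus far above the other 10, and every cKO library with 4T1 CM was above both fl/fl libraries. The group means with 4T1 CM were 214 ± 3.27 CPM (SD, n = 2) in fl/fl and 359 ± 32.1 CPM (SD, n = 3) in cKO. The next levels in order were 26.1 CPM in cKO with rmGM-CSF, 24.1 and 20.9 CPM in fl/fl and cKO in DMEM and 18.2 CPM in fl/fl with rmGM-CSF, and each of these overlapped its neighbour in the order.

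Against DMEM, 4T1 CM raised Vegfa 8.91-fold in fl/fl (log2 fold change 3.15 ± 0.17 SE, adjusted p = 6.88e-11, edgeR) and 17.2-fold in cKO (log2 fold change 4.10 ± 0.14 SE, adjusted p = 1.27e-13). The ratio of the 2 libraries of each mouse was 7.92 and 10.2 in the fl/fl mice and 14.6, 18.4 and 19.4 in the cKO mice. The ratios of the cKO mice were all higher. Tested as an interaction, the response of cKO exceeded that of fl/fl by 0.95 ± 0.21 SE on the log2 scale. It missed the threshold of 0.01 used here in edgeR (adjusted p = 0.0166) and in DESeq2 (adjusted p = 0.0169). With the mouse as a block it passed (0.95 ± 0.12 SE, adjusted p = 0.00017), and also without the filter on low counts (adjusted p = 0.00081). Leaving out cKO mouse 114, 115 or 116 gave adjusted p = 0.00331, 0.0258 or 0.0905 in edgeR. Leaving out fl/fl mouse 112 or 113 gave log2 values of 0.76 or 1.11. Between the genotypes in 4T1 CM itself, Vegfa was 1.67-fold higher in cKO (log2 fold change 0.74 ± 0.13 SE, adjusted p = 0.00109). This call was lost when a single fl/fl mouse remained, with adjusted p = 0.0151 without mouse 112 and 0.0282 without mouse 113, while the log2 fold change stayed at 0.76 and 0.73.

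The response of Vegfa to rmGM-CSF was far smaller than to 4T1 CM. The ratio to DMEM was 0.734 and 0.781 in the fl/fl mice and 1.16, 1.29 and 1.32 in the cKO mice, so that it lay below 1 in both fl/fl mice and above 1 in all cKO mice. The log2 fold changes were -0.41 ± 0.18 SE in fl/fl (adjusted p = 0.0868) and 0.32 ± 0.14 SE in cKO (adjusted p = 0.0998), and neither passed. With the mouse as a block, both passed, at -0.40 ± 0.11 SE (adjusted p = 0.00671) and 0.32 ± 0.09 SE (adjusted p = 0.00708). The difference between these responses, 0.73 ± 0.23 SE, moved from adjusted p = 0.0988 to 0.00254 with the block. Its adjusted p was 0.139 in DESeq2 and 0.0301, 0.102 or 0.26 in edgeR without cKO mouse 114, 115 or 116. Without fl/fl mouse 112 or 113 the log2 difference was 0.67 or 0.77. Directly between 4T1 CM and rmGM-CSF, Vegfa was 11.8-fold higher in fl/fl and 13.8-fold higher in cKO (adjusted p = 5.45e-11 and 6.75e-13).

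Slc2a1 (ENSMUSG00000028645, chr4:119108711-119137983) encodes the glucose transporter GLUT1, which brings glucose into the cell. It was at 32.3 to 36.3 CPM in the 5 DMEM libraries, where the genotypes overlapped (log2 difference 0.02 ± 0.08 SE, adjusted p = 0.9). With rmGM-CSF it was at 135 and 151 CPM in fl/fl and at 102, 104 and 100 CPM in cKO. With 4T1 CM it was at 241 and 263 CPM in fl/fl and at 283, 299 and 277 CPM in cKO. The 3 media did not overlap in either genotype. rmGM-CSF raised it 4.18-fold in fl/fl and 2.93-fold in cKO (adjusted p = 1.69e-12 and 5.77e-12), and 4T1 CM raised it 7.35-fold in fl/fl and 8.22-fold in cKO (adjusted p = 3.59e-14 and 7.57e-16). With rmGM-CSF it was 1.40-fold lower in cKO (log2 fold change -0.49 ± 0.07 SE, adjusted p = 6.2e-05), whereas with 4T1 CM the log2 difference was 0.18 ± 0.07 SE and was not called (adjusted p = 0.076). The response to rmGM-CSF was smaller in cKO than in fl/fl by 0.51 ± 0.10 SE on the log2 scale (log2 interaction -0.51, adjusted p = 0.00467). Leaving out any 1 of the 5 mice gave an adjusted p between 0.0186 and 0.0380 for that interaction, with log2 values from -0.54 to -0.47. Pdk1, a pyruvate dehydrogenase kinase, was at 11.7 to 18.2 CPM in all libraries and was called in 0 of the 12 comparisons. Its closest comparison was rmGM-CSF against DMEM in fl/fl (log2 fold change -0.44 ± 0.13 SE, adjusted p = 0.0108), and with the mouse as a block it was lower with rmGM-CSF in fl/fl and in cKO (-0.44 and -0.34, adjusted p = 0.00499 and 0.00817).

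Ndrg1 (ENSMUSG00000005125), a cytosolic protein induced by hypoxia and stress, had the largest genotype difference of the 9 tested members, with rmGM-CSF. In DMEM it was at 210 and 233 CPM in fl/fl and at 178, 168 and 173 CPM in cKO. With rmGM-CSF it was at 435 and 459 CPM in fl/fl and at 183, 180 and 177 CPM in cKO. With 4T1 CM it was at 331 and 410 CPM in fl/fl and at 262, 223 and 266 CPM in cKO. Every cKO library was below both fl/fl libraries of its medium. rmGM-CSF raised Ndrg1 2.02-fold in fl/fl (adjusted p = 1.76e-07), and in cKO the log2 fold change was 0.06 ± 0.08 SE (adjusted p = 0.6). The interaction was -0.95 ± 0.12 SE (adjusted p = 8.75e-05). 4T1 CM raised Ndrg1 in both genotypes, by 0.74 ± 0.09 SE in fl/fl and 0.54 ± 0.08 SE in cKO on the log2 scale (adjusted p = 4.7e-06 and 1.78e-05), and these responses were not shown to differ (interaction -0.21 ± 0.12 SE, adjusted p = 0.476). Between the genotypes, Ndrg1 was 2.48-fold lower in cKO with rmGM-CSF (adjusted p = 5.65e-09) and 1.48-fold lower with 4T1 CM (adjusted p = 0.000217). In DMEM the log2 difference of -0.36 ± 0.09 SE was not called (adjusted p = 0.0185). Without mouse 113 the difference with 4T1 CM fell to -0.41 and was not called (adjusted p = 0.0169), and with a fit to the compared libraries alone it stayed at -0.57 but was not called (adjusted p = 0.0154).

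**Figure D2:**
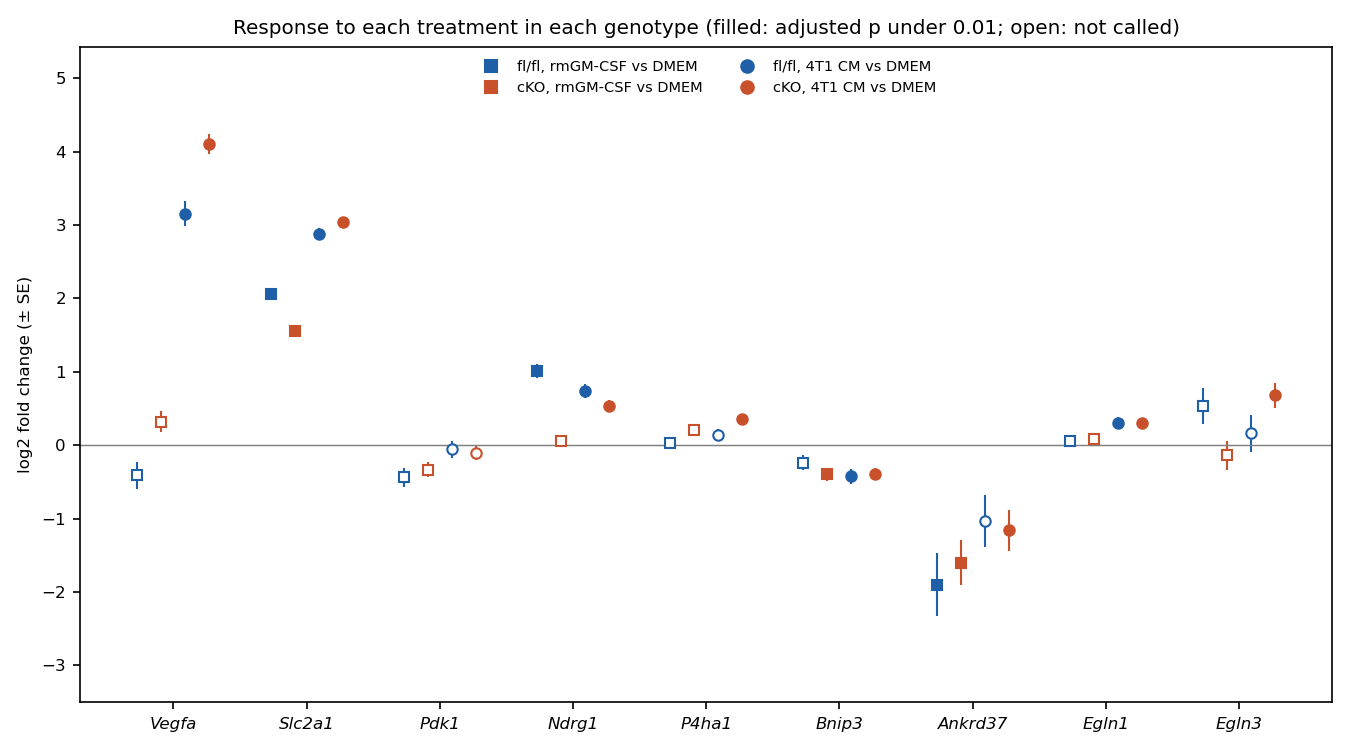
Log2 fold change (y axis, ± SE from the edgeR fit) of the 9 tested members for rmGM-CSF (squares) and 4T1 CM (circles) against DMEM in STAT5 fl/fl (blue) and STAT5 cKO (orange). Filled marks passed an adjusted p of 0.01. Vegfa and Slc2a1 rose by 2.88 to 4.10 with 4T1 CM, Slc2a1 rose with rmGM-CSF in both genotypes, Ndrg1 did so in fl/fl, and the Ankrd37 marks all lay below 0.

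2 of the members encode prolyl hydroxylases, which switch HIF off and are themselves HIF targets. Egln1, the main oxygen sensor, was at 50.7 to 58.8 CPM in DMEM and at 62.5 to 72.3 CPM with 4T1 CM, without overlap. It rose by 0.31 ± 0.07 SE in fl/fl and 0.31 ± 0.06 SE in cKO on the log2 scale (adjusted p = 0.00171 and 0.000262). Egln3, the more inducible one, was expressed at 35 to 95 counts per library. With 4T1 CM it was at 2.04 and 2.37 CPM in fl/fl and at 4.40, 3.21 and 4.30 CPM in cKO, so the genotypes did not overlap. It rose with 4T1 CM in cKO (log2 fold change 0.68 ± 0.17 SE, adjusted p = 0.00336), and in fl/fl the value was 0.16 ± 0.25 SE (adjusted p = 0.627). It was 0.85 ± 0.21 SE higher in cKO than in fl/fl with 4T1 CM on the log2 scale, just inside the threshold (adjusted p = 0.00993), and 7 of 10 alternatives lost this call, with adjusted p up to 0.118. The difference between the responses of the genotypes to 4T1 CM was not called (0.52 ± 0.31 SE, adjusted p = 0.483).

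P4ha1, a subunit of the collagen prolyl hydroxylase, was at 67.6 to 77.2 CPM in DMEM. With 4T1 CM it was at 74.7 and 77.9 CPM in fl/fl and at 85.4, 103 and 93.0 CPM in cKO. It rose in cKO (log2 fold change 0.36 ± 0.07 SE, adjusted p = 0.000283), with a value of 0.14 ± 0.08 SE in fl/fl (adjusted p = 0.188). These responses were not shown to differ (interaction 0.22 ± 0.11 SE, adjusted p = 0.367). With 4T1 CM both fl/fl libraries were below all cKO libraries, but the genotype difference of 0.30 ± 0.08 SE was not called (adjusted p = 0.0141).

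Bnip3 and Ankrd37 went down. Bnip3, a mitochondrial protein that marks mitochondria for autophagy, averaged 15.1 ± 0.0999 CPM (SD, n = 2) in fl/fl and 15.8 ± 0.795 CPM (SD, n = 3) in cKO in DMEM, and it was at 11.3 to 13.3 CPM with rmGM-CSF and at 10.7 to 12.5 CPM with 4T1 CM. All 10 stimulated libraries were below all 5 DMEM libraries. It fell with 4T1 CM in fl/fl and cKO (log2 fold change -0.42 ± 0.10 SE and -0.39 ± 0.08 SE, adjusted p = 0.0025 and 0.000693) and with rmGM-CSF in cKO (-0.40 ± 0.08 SE, adjusted p = 0.0012), and in fl/fl with rmGM-CSF the value was -0.24 ± 0.10 SE (adjusted p = 0.075). The Bnip3 responses of the genotypes to rmGM-CSF were not shown to differ (interaction -0.16 ± 0.13 SE, adjusted p = 0.709). Ankrd37, an ankyrin-repeat protein known as a HIF target, was low, at 7 to 61 counts per library. It was at 1.65 to 2.65 CPM in DMEM, 0.436 to 1.08 CPM with rmGM-CSF and 0.681 to 1.34 CPM with 4T1 CM, and again all stimulated libraries were below all DMEM libraries. It fell with rmGM-CSF in fl/fl and cKO (-1.90 ± 0.42 SE and -1.60 ± 0.31 SE, adjusted p = 0.00172 and 0.000635) and with 4T1 CM in cKO (-1.16 ± 0.28 SE, adjusted p = 0.00232). In fl/fl with 4T1 CM the value was -1.03 ± 0.35 SE (adjusted p = 0.0222). The Ankrd37 responses of the genotypes to 4T1 CM were not shown to differ (interaction -0.13 ± 0.47 SE, adjusted p = 0.95). Ankrd37 overlaps Ufsp2 on the opposite strand, and the counting used strand.

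Adm, which encodes the vasodilator adrenomedullin, had 0 to 8 counts per library and was not tested. It had 1 to 3 counts in the 5 DMEM libraries, 4 and 6 in fl/fl with rmGM-CSF, 6, 7 and 8 in cKO with rmGM-CSF, 0 and 4 in fl/fl with 4T1 CM and 0 to 2 in cKO with 4T1 CM. The rmGM-CSF libraries were thus the highest in cKO, at levels where a few reads decide, and 4T1 CM did not bring Adm to a level that this depth could measure. Without the filter on low counts, 4T1 CM against rmGM-CSF in cKO was called lower (adjusted p = 0.00858).

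Over the 9 tested members, 3 were called for rmGM-CSF against DMEM in fl/fl, 2 higher and 1 lower, where 28.5% of the 13005 genes tested were called. In cKO 3 were called, 1 higher and 2 lower, against 23.5% of genes. With the mouse as a block these counts were 5 and 5, against 30.8% and 25.7% of genes in the same fit. For 4T1 CM against DMEM, 5 were called in fl/fl, 4 higher and 1 lower, against 37.4% of genes, and 8 in cKO, 6 higher and 2 lower, against 37.6%. The median log2 fold change of the members with 4T1 CM was 0.16 in fl/fl and 0.36 in cKO, and the median of all genes was 0.02 and 0.01. These comparisons share the DMEM libraries. For 4T1 CM against rmGM-CSF, 2 members were called in fl/fl against 30.5% of genes and 5 in cKO against 34.1%, all higher with 4T1 CM, and with the block the count in fl/fl was 4 against 33% of genes, with Egln1 higher and Ndrg1 lower (0.24 and -0.28, adjusted p = 0.00834 and 0.0047).

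Between the genotypes, 0 of 9 members were called in DMEM, where 2.49% of genes were, 1 member had an unadjusted p under 0.05 in edgeR, as did 21.7% of genes, and DESeq2 called 1 (Ndrg1) and 4.28% of genes. With rmGM-CSF 2 were called, both lower in cKO, against 9.8% of genes. With 4T1 CM 3 were called, 2 higher and 1 lower, against 7.7% of genes, and these were 0 without mouse 113 and 1 without mouse 112. The difference between the responses of the genotypes was called for 2 members with rmGM-CSF against DMEM (3.11% of genes), for 0 with 4T1 CM against DMEM (1.27% of genes; 1 member and 14.3% of genes at an unadjusted p under 0.05 in edgeR, and 0 members and 2.79% of genes called in DESeq2) and for 2 with 4T1 CM against rmGM-CSF (1.47% of genes). The members called in the first and the last of these were Ndrg1 and Slc2a1 in both, and both comparisons use the rmGM-CSF libraries.

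**Figure D3:**
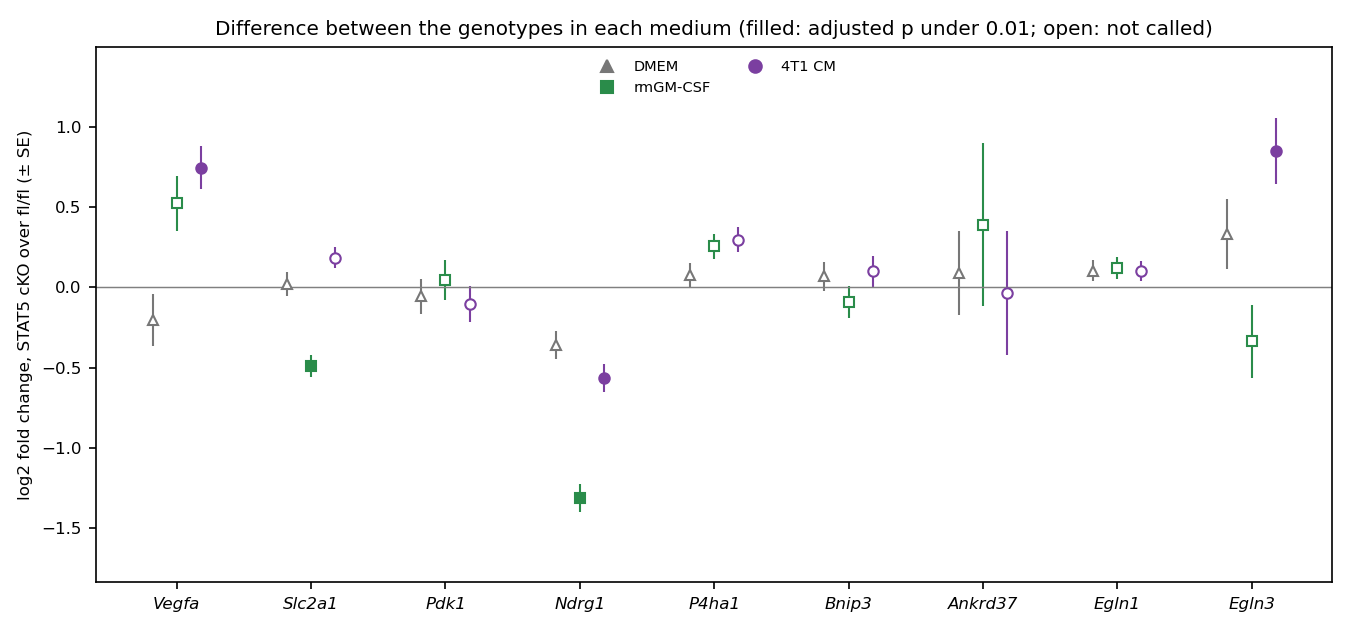
Log2 fold change of STAT5 cKO over STAT5 fl/fl (y axis, ± SE from the edgeR fit) of the 9 tested members in DMEM, rmGM-CSF and 4T1 CM. Filled marks passed an adjusted p of 0.01. Ndrg1 lay below 0 in all 3 media, Slc2a1 was called lower with rmGM-CSF, and Vegfa and Egln3 were higher with 4T1 CM.

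The genes that sense oxygen and carry the HIF signal were looked at beside the members. Of 14 tested, 8 were called with 4T1 CM against DMEM in fl/fl, 5 higher and 3 lower, and 6 in cKO, 3 higher and 3 lower, where 37.4% and 37.6% of all genes were called. Hif1a, the inducible alpha subunit, was at 109 ± 1.4 CPM (SD, n = 2) in fl/fl in DMEM and at 331 ± 29 CPM with 4T1 CM, and at 109 ± 8.4 and 386 ± 71 CPM (SD, n = 3) in cKO. It rose by 1.599 ± 0.13 SE in fl/fl and 1.83 ± 0.10 SE in cKO on the log2 scale (adjusted p = 1.14e-08 and 1.11e-10). With rmGM-CSF it rose by 0.46 ± 0.12 SE and 0.38 ± 0.10 SE (adjusted p = 0.00697 and 0.00761). Arnt, its partner, rose with 4T1 CM by 0.45 ± 0.06 SE and 0.53 ± 0.05 SE (adjusted p = 1.22e-05 and 1.44e-07). The coactivator Ep300 was lower with 4T1 CM, at -0.85 ± 0.10 SE and -0.68 ± 0.08 SE (adjusted p = 1.21e-06 and 1.21e-06). Cited2, which competes with HIF for that coactivator, rose with rmGM-CSF in fl/fl by 0.75 ± 0.07 SE and fell with 4T1 CM (-0.95 ± 0.08 SE, adjusted p = 4.09e-07 and 1.94e-08). In cKO these changes were 0.38 ± 0.06 SE and -0.44 ± 0.06 SE (adjusted p = 0.000132 and 1.57e-05), and the interaction for 4T1 CM against DMEM was 0.52 ± 0.10 SE (adjusted p = 0.00701).

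Among the other ligands and receptors of the VEGF family, 7 of 9 were tested. Pgf, a ligand of the same family as Vegfa, had 8 to 11 counts per library in fl/fl in DMEM, 207 to 231 with rmGM-CSF and 168 to 237 with 4T1 CM, and 11 to 26 in all 9 cKO libraries. It was 12.6 ± 0.36 CPM in fl/fl and 0.851 ± 0.26 CPM in cKO with rmGM-CSF (log2 fold change -3.93 ± 0.22 SE, adjusted p = 1.19e-09), and 10.1 ± 2.0 and 1.04 ± 0.25 CPM with 4T1 CM (-3.28 ± 0.21 SE, adjusted p = 2.75e-08). So with 4T1 CM Vegfa was higher in cKO and Pgf was lower. Kdr, the main signalling receptor for VEGFA, was at 121 ± 6.2 CPM in fl/fl in DMEM and 62.6 ± 3.5 CPM in cKO (-0.95 ± 0.11 SE, adjusted p = 5.87e-05), and of 5 endothelial markers Tek, Emcn and Robo4 were at 3 counts or fewer, Cdh5 had 0 to 16 counts and Tie1 had 71 to 167 counts in all groups. rmGM-CSF lowered Kdr in fl/fl (-1.07 ± 0.12 SE, adjusted p = 2.25e-06). The coreceptors Nrp1 and Nrp2 moved apart with 4T1 CM in fl/fl. Nrp1 fell (-0.71 ± 0.09 SE, adjusted p = 2.9e-06) and Nrp2 rose (0.41 ± 0.08 SE, adjusted p = 0.000539). In cKO the means went from 171 to 138 CPM for Nrp1 and from 604 to 690 CPM for Nrp2. Nrp2 was higher still with rmGM-CSF, at 1095 CPM in fl/fl and 985 CPM in cKO, against 594 and 604 CPM in DMEM. Of the adrenomedullin receptor genes, 3 of 4 were tested, and Ramp3 was higher with 4T1 CM, at 49 to 70 counts in fl/fl and 98 to 150 in cKO against 9 to 26 and 0 to 10 in DMEM (adjusted p = 0.00521 and 3.42e-07). Ramp1 was lower in cKO with rmGM-CSF and with 4T1 CM (-0.85 ± 0.19 SE and -0.83 ± 0.18 SE, adjusted p = 0.00409 and 0.00427), and Calcrl was higher in cKO with rmGM-CSF (0.69 ± 0.16 SE, adjusted p = 0.00603).

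Of 32 other genes known as HIF targets, 30 were tested. With 4T1 CM against DMEM, 15 were called higher and 6 lower in fl/fl, and 14 higher and 5 lower in cKO, so 21 and 19 were called, where 37.4% and 37.6% of all genes were. With rmGM-CSF, 4 were higher and 7 lower in each genotype, or 11 called, where 28.5% of all genes were in fl/fl and 23.5% in cKO. Pfkfb3, an enzyme that speeds up glycolysis, was at 62.5 ± 3.5 CPM (SD, n = 2) in fl/fl and 56.0 ± 4.2 CPM (SD, n = 3) in cKO in DMEM and at 186 ± 23 and 262 ± 9.1 CPM with 4T1 CM (log2 fold change 1.57 ± 0.12 SE and 2.23 ± 0.10 SE, adjusted p = 7.44e-09 and 4.61e-12). Hilpda, which keeps lipid in droplets, rose by 2.23 ± 0.12 SE and 2.61 ± 0.09 SE with 4T1 CM (adjusted p = 1.54e-10 and 2.2e-13). Mxi1, a MYC antagonist, rose by 1.42 ± 0.08 SE and 2.05 ± 0.07 SE with 4T1 CM (adjusted p = 2.3e-10 and 9.03e-14), and it fell with rmGM-CSF in both genotypes (-0.59 ± 0.09 SE and -0.52 ± 0.07 SE, adjusted p = 4.19e-05 and 2.55e-05). Ccng2, a cyclin of resting cells, fell with 4T1 CM (-1.98 ± 0.09 SE and -1.87 ± 0.07 SE, adjusted p = 1.86e-11 and 1.2e-12). Between the genotypes with 4T1 CM, 6 of the 30 were called, all higher in cKO, where 7.7% of all genes were called. The median log2 difference over the 30 was 0.06 and that of all genes 0.01, and 24 of the 30 were not called. With 4T1 CM, Pfkfb3, Hilpda and Mxi1 were higher in cKO than in fl/fl, like Vegfa, by 0.50 ± 0.11 SE, 0.76 ± 0.09 SE and 0.47 ± 0.07 SE on the log2 scale (adjusted p = 0.0038, 1.98e-05 and 0.000227).

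**Figure D4:**
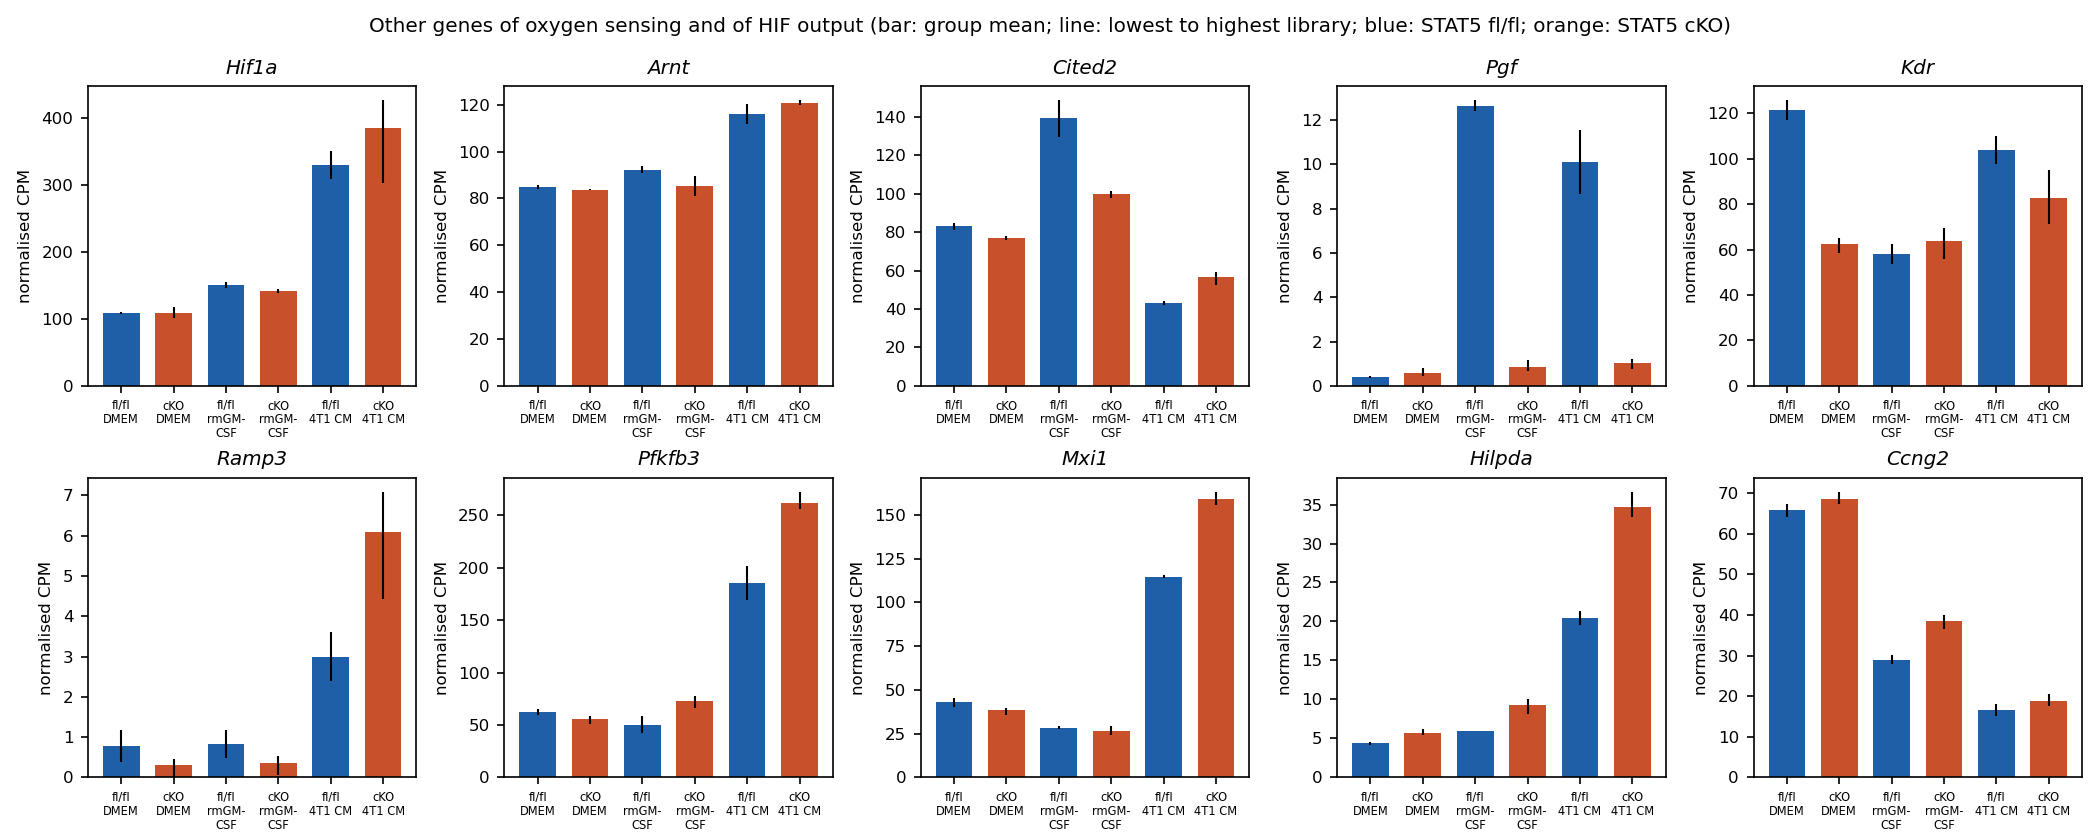
Normalised CPM (y axes, linear from 0) of 10 further genes of oxygen sensing and HIF output, with bars for group means and black lines from the lowest to the highest library. Hif1a, Pfkfb3, Mxi1, Hilpda and Ramp3 were highest with 4T1 CM, Ccng2 was lowest with 4T1 CM, and Pgf averaged 12.6 and 10.1 CPM in STAT5 fl/fl with rmGM-CSF and 4T1 CM, against 1.04 CPM or less in the other groups.

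Over the 15 libraries, the tested genes whose log2 CPM followed Vegfa most closely were Sik1 (Pearson r = 0.991), Nr4a1 (r = 0.990), Sema4c (r = 0.989), Fem1c (r = 0.989) and Thbs1 (r = 0.989). The libraries are not independent, since they share mice and media, and a high r can be reached by any gene that separates the 4T1 CM libraries from the rest. The members followed Vegfa to different degrees, from r = 0.888 for Egln1 and 0.787 for Slc2a1 to -0.57 for Bnip3, and the closest of them, Egln1, ranked 553 among the genes tested.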

How the data were processed

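BMDM RNA from 15 libraries was sequenced on stranded TruSeq libraries. Per the labels and methods, the authors trimmed reads with Trimmomatic 0.33, aligned them to GRCm38 with HISAT2 2.1.0 and counted them with featureCounts 1.6.2 on the Ensembl annotation, by strand. The deposited values are raw counts per gene. The filter asked for more than 1 CPM in 2 or more libraries and left 13005 of 55385 genes. Counts were scaled by relative log expression and tested with the quasi-likelihood F test of edgeR 4.0.16 (R 4.3.3) in 1 model of the 6 groups, with Benjamini-Hochberg adjustment over all genes, and called at an adjusted p under 0.01. Normalised CPM uses the same scaling, and SE is the log2 fold change divided by the root of F. DESeq2 1.42.0, TMM scaling, no filter, a threshold of 0.05, each mouse left out, the compared groups alone and the mouse as a block were alternatives. The fit was tested on simulated data.

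Library numbers in the titles were read as mice. Deviations of libraries of 1 mouse from their group means correlated at 0.0926 to 0.213 in fl/fl (3 values, since the deviations of 2 mice mirror each other) and 0.0548 to 0.214 in cKO (9 values). The mice separate the genotypes, so no block could be fitted to genotype comparisons. The labels do not say whether mice of 1 genotype shared a culture date.

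Members and gene lists were chosen with earlier results of these data known. Named list genes are the up to 4 with the smallest adjusted p in each list over the 12 comparisons. 1 gene of these lists is not reported here. Library totals ran from 16016736 to 22883108 counts, and 3 counts served as floor. Sequences are from RefSeq (GRCm38.p6), and gene coordinates are those of the count table (GRCm38).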

Additional observations from a re-analysis of the deposited data

Results flagged for a closer look

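Of all genes tested, a difference between the responses of the 2 genotypes was called for 3.11% with rmGM-CSF against DMEM. The shares were 1.27% with 4T1 CM against DMEM and 1.47% with 4T1 CM against rmGM-CSF. Among the genes examined here, the tests passed for 2 of the 9 tested members and for 6 genes of the other lists. These counts take a gene that passed in any of these comparisons, so they cannot be set beside the shares of single comparisons. With values given as the cKO response minus the fl/fl response on the log2 scale, these genes passed at an adjusted p under 0.01 in edgeR. For rmGM-CSF against DMEM they were Ndrg1 (-0.95, adjusted p = 8.75e-05), Slc2a1 (-0.51, adjusted p = 0.00467), Pgf (-4.44, adjusted p = 4.7e-05), Kdr (1.09, adjusted p = 0.000304), Hk2 (-0.85, adjusted p = 0.000891) and Bhlhe40, a transcriptional repressor (-0.60, adjusted p = 0.00523). For 4T1 CM against DMEM they were Pgf (-3.78, adjusted p = 0.00055), Cited2 (0.52, adjusted p = 0.00701) and Mxi1 (0.63, adjusted p = 0.0022). For 4T1 CM against rmGM-CSF they were Ndrg1 (0.75, adjusted p = 0.00138), Slc2a1 (0.67, adjusted p = 0.000366), Cited2 (0.89, adjusted p = 3.36e-05), Mxi1 (0.56, adjusted p = 0.00696), Hk2 (0.80, adjusted p = 0.00196) and Bhlhe40 (0.75, adjusted p = 0.00117). Pgf had 8 to 26 counts per library in DMEM and in all cKO groups, so its differences rest on few reads there. The responses share libraries, and the groups of 2 and 3 libraries were too small for a check of single outlying libraries.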

How the results depend on the processing

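Of the 35 calls of members over the 12 comparisons, 19 held under every alternative that was run and 16 were lost under at least 1. None of the 35 changed direction. TMM scaling and the replicate block kept all calls they could be applied to, 35 and 30. DESeq2 lost 2 (Egln3 for cKO against fl/fl with 4T1 CM, adjusted p = 0.0195, and for 4T1 CM against DMEM in cKO, adjusted p = 0.0114). Without the filter on low counts 1 was lost (Egln1 for 4T1 CM against rmGM-CSF in cKO, adjusted p = 0.0178). The older (legacy) edgeR quasi-likelihood fit, chosen after seeing the data, lost Egln3 between the genotypes with 4T1 CM (adjusted p = 0.0131). The calls of Vegfa and Slc2a1 for 4T1 CM against DMEM and against rmGM-CSF held in each.

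Counts of called members moved by over 1.5 times as follows. Between the genotypes in DMEM, 1 was called without the filter, with DESeq2, with the compared libraries alone and at 0.05, against 0. With rmGM-CSF, 4 were called with the compared libraries alone and at 0.05, against 2, and with 4T1 CM 1 was called with the compared libraries alone, against 3, where Egln3 and Ndrg1 were lost (adjusted p = 0.0643 and 0.0154). The replicate block gave 5 against 3 for rmGM-CSF against DMEM in fl/fl and in cKO, 4 against 2 for 4T1 CM against rmGM-CSF in fl/fl, and 1 against 0 for the interaction of 4T1 CM against DMEM. It added calls and removed none. The threshold of 0.05 gave 5 for 4T1 CM against rmGM-CSF in fl/fl, 5 for rmGM-CSF against DMEM in cKO and 1 for the interaction of 4T1 CM against DMEM, and removing the filter gave 1 for that interaction. For the interaction of 4T1 CM against DMEM, the block called 2.32% of all genes. At 0.05, without the filter, with the compared libraries alone and with each mouse left out, the share of all genes called was not computed. The counts of members in those settings therefore cannot be judged against it. The cause was not tested.

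With each mouse left out, the counts ranged from 0 to 0 between the genotypes in DMEM, 2 to 2 with rmGM-CSF and 0 to 3 with 4T1 CM. In fl/fl they were 2 to 2 for rmGM-CSF against DMEM, 3 to 3 for 4T1 CM against DMEM and 2 to 2 for 4T1 CM against rmGM-CSF. In cKO they were 2 to 3, 6 to 7 and 3 to 4. The interactions gave 1 to 1, 0 to 1 and 1 to 2. Calls were lost for Bnip3, Ankrd37 and Egln1 in fl/fl without mouse 112 or 113 (adjusted p from 0.0230 to 0.0796), for Bnip3 in cKO without mouse 116 (0.0353 and 0.0149), for Ankrd37 in cKO without mouse 115 (0.0330 and 0.0358) or 114 (0.0195), for P4ha1 in cKO without mouse 115 (0.0104), for Egln1 for 4T1 CM against rmGM-CSF in cKO without mouse 114, 115 or 116 (0.0158 to 0.0418), and for the Ndrg1 interaction of 4T1 CM against rmGM-CSF without mouse 112, 114 or 116 (0.0127 to 0.0247). Egln3 lost its calls in cKO without mouse 116 (0.0788 and 0.0199) and, against rmGM-CSF, without mouse 114 (0.0107). Where 1 fl/fl mouse remained, it was assumed to vary like the other groups. The Vegfa log2 difference between the genotypes in DMEM turned from -0.20 to 0.0025 without mouse 112, in a range of -0.39 to 0.0025 over the mice left out, and was not called in any.

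Depth limits Adm (0 to 8 counts), Ankrd37 (7 to 61 counts) and Egln3 (35 to 95 counts). Groups of 2 and 3 mice limit all genotype comparisons.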

Other observations

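Hk2, which encodes the hexokinase that takes up the first step of glycolysis behind the glucose transporter, was singled out after its values were seen. Its group means were 53.9, 95.7 and 158 CPM in fl/fl and 57.0, 56.2 and 161 CPM in cKO with DMEM, rmGM-CSF and 4T1 CM. rmGM-CSF raised it in fl/fl (log2 fold change 0.83 ± 0.11 SE, adjusted p = 8.41e-06, edgeR), and the response in cKO differed from that in fl/fl (-0.85 ± 0.14 SE, adjusted p = 0.000891). 4T1 CM raised it by 1.55 ± 0.11 SE in fl/fl and 1.496 ± 0.09 SE in cKO (adjusted p = 2.05e-09 and 1.54e-10). Angptl4, a secreted inhibitor of lipoprotein lipase that was also chosen after its values were seen, had its means at 7.61 CPM in fl/fl and 7.65 CPM in cKO in DMEM. It fell with rmGM-CSF (-3.03 ± 0.31 SE and -2.05 ± 0.21 SE, adjusted p = 6.42e-07 and 8.15e-07) and with 4T1 CM (-1.78 ± 0.25 SE and -1.77 ± 0.20 SE, adjusted p = 1.41e-05 and 9.55e-07). With rmGM-CSF it had only 13 to 19 counts per library in fl/fl and 26 to 41 in cKO. A difference between the responses of the genotypes was not called for Angptl4.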
